A study of Mus musculus with 8 samples.

Results

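Prostaglandins are lipid signals made from arachidonate, and the transcripts of 7 genes that make, degrade or sense them were followed in single cells of the mouse distal colonic mucosa. The genes were Ptgs1, Ptgs2, Ptges, Ptgis, Hpgd, Ptger2 and Ptger4, taken by gene symbol from the 31053 genes of the deposited table, and all 7 were found there. The rule that chose them names symbols and uses no measured value, although the members were chosen with earlier results of these data known. The cells came from 8 mice of 8 weeks of age. In the KO group, 4 mice (2, 3, 6 and 7) carried floxed Spry2 alleles (Spry2-f/f) and Cre recombinase driven by the Vil1 promoter, which is active in intestinal epithelium and not in stroma or blood cells. In the WT group, 4 mice (1, 4, 5 and 8) were littermates with the floxed alleles and no Cre; KO and WT stand here for these labels. Both groups therefore share the floxed locus, and the deletion is directed to epithelial cells. Muscle layers had been stripped off and dead cells removed before capture, so the cells are those that survived digestion.

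Arachidonate is freed from membranes by phospholipases and is turned into prostaglandin H2 by the cyclooxygenases, of which Ptgs1 encodes the constitutive and Ptgs2 the inducible form. Terminal synthases then set the product: Ptges makes prostaglandin E2 and Ptgis makes prostacyclin. Hpgd encodes 15-hydroxyprostaglandin dehydrogenase, which inactivates prostaglandin E2, and Ptger2 and Ptger4 encode its EP2 and EP4 receptors, which raise cyclic AMP. In the gut, prostaglandin E2 from stromal cells is known for its part in epithelial repair and in colon tumours.

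The 7 genes lie on 5 chromosomes of the mm10 build, and 3 of them on chromosome 2. Ptgs1 (ENSMUSG00000047250) is at chr2:36230426-36252272 on the plus strand, with up to 11 exons. Ptgs2 (ENSMUSG00000032487) is at chr1:150100031-150108227 on the plus strand, with up to 10 exons. Ptges (ENSMUSG00000050737) is at chr2:30889471-30929863 on the minus strand and Ptgis (ENSMUSG00000017969) at chr2:167191805-167240604 on the minus strand. Hpgd (ENSMUSG00000031613) is at chr8:56294585-56321043 on the plus strand. The receptor genes Ptger2 (ENSMUSG00000037759) and Ptger4 (ENSMUSG00000039942) are at chr14:44988195-45003820 on the plus strand and chr15:5206661-5244187 on the minus strand. In the annotation, Ptgs2 overlapped no other gene. Genes on the opposite strand overlapped Ptgs1, Ptgis, Ptger2 and Ptger4, among them the protein-coding gene Ttc33 at Ptger4, and other annotated genes on the same strand overlapped Ptges and Hpgd. Whether the counting used strand is not given in the sources used here, so for those 6 genes reads of an overlapping gene could be part of the counts.

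Promoters are shown for Ptgs2 and Ptges, whose levels were each higher in the same fibroblast subtype. Ptgs1, whose level was not higher there, is shown as well. The sequences are RefSeq's for GRCm38.p6, 300 bases each, running 5′ to 3′ along the gene with the annotated start at base 251, and capitals mark matches to the 5 motifs searched. The windows are chr1:150099781-150100080 on the plus strand for Ptgs2, chr2:30903248-30903547 on the minus strand for Ptges and chr2:36230176-36230475 on the plus strand for Ptgs1.
Ptgs2: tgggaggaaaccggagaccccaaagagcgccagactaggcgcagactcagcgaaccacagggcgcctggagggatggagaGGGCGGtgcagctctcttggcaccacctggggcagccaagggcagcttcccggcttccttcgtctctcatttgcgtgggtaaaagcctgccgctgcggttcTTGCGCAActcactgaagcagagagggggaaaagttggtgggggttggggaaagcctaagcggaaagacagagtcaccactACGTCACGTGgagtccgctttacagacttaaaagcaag
Ptges: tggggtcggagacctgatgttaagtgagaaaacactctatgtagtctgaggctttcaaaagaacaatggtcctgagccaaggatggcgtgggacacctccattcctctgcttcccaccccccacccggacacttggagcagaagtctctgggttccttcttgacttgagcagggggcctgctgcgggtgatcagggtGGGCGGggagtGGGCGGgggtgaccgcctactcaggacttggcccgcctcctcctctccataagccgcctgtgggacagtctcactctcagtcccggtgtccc
Ptgs1: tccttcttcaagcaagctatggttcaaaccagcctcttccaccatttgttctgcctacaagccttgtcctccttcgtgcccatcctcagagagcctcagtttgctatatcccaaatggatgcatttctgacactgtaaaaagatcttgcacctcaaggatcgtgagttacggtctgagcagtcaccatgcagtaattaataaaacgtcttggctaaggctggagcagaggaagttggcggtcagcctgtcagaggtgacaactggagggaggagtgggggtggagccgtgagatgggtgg
Both strands were searched for the E-box CACGTG, the cyclic AMP response element half-site TGACGT, the C/EBP palindrome TTGCGCAA, the GC box GGGCGG and the TATA box TATAAA. The Ptgs2 window held a GC box at bases 81 to 86, the C/EBP palindrome at bases 182 to 189, a reversed half-site at bases 263 to 268 and an E-box at bases 267 to 272. The last 2 matches overlap and form a single capital run. The Ptges window held 2 GC boxes, at bases 198 to 203 and 209 to 214, and the Ptgs1 window held none of the 5 motifs. Among windows not shown, that of Ptger2, a gene also higher in that fibroblast subtype, held none of the 5 motifs. The window of Hpgd, not higher there, held a GC box and a TATA box. The Ptger4 window held 4 GC boxes. Of all 32851 RefSeq promoter windows of this length, 0.183% held the palindrome, 7.15% the E-box, 7.51% the half-site, 35.7% the GC box and 13.6% the TATA box. A match describes letters only, and no binding was measured here.

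Each value below is a level in CPM, the usual depth-scaled count: a gene's unique molecular identifiers (UMIs, each counting 1 captured transcript) summed over the cells of a type in a mouse, divided by all UMIs of those cells and scaled as CPM. Levels are given for mice with at least 20 cells of the type. Across the 53080 cells a mouse had 19.0 to 28.2 M UMIs in all in the KO group and 17.0 to 37.3 M UMIs in the WT group, and 1316 cells in doublet subtypes of the annotation were set aside. Of the barcodes, 356 occurred in more than 1 mouse, in 719 cells. Spry2 in epithelial cells measured 10.4, 13.3, 15.7 and 49.3 CPM in KO mice and 11.2, 17.6, 27.7 and 37.6 CPM in WT mice, so the ranges overlapped. Reads of transcript 3′ ends may lie outside the deleted part, so this gives no check of the labels. The authors' cell types carried their markers: Epcam averaged 1956 CPM in epithelial cells and 21.9 CPM in fibroblasts, and Col1a1 averaged 9.20 CPM in epithelial cells and 3834 CPM in fibroblasts. Mitochondrial transcripts made up at least 50% of UMIs in 13.6% to 79.6% of epithelial cells of KO and 11.1% to 78.8% of those of WT mice, and the high values were all in mice 1 to 4.

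Most transcripts of the genes that make prostaglandins lay in fibroblasts, and most of the gene that degrades them lay in epithelial cells. Fibroblasts held 81.2% of the 3570 UMIs of Ptgs1, 79.8% of the 4264 of Ptgs2, 91.0% of the 2200 of Ptges and 97.0% of the 5313 of Ptgis, although they were 6262 of the cells. Epithelial cells, 23787 in number, held 88.1% of the 12015 UMIs of Hpgd. In every mouse the fibroblast level was above the epithelial level for Ptgs1 and Ptgs2, with mean log2 differences of 5.14 ± 0.55 and 5.83 ± 0.90 (SD, n = 8 mice; pseudocount 1 CPM). In all 8 mice Hpgd ran the other way, with a fibroblast minus epithelial log2 difference of -1.23 ± 0.44. The receptor genes were spread over more types: epithelial cells held 56.8% of the 4737 UMIs of Ptger4, and fibroblasts held 56.4% of the 328 UMIs of Ptger2, the member with the fewest counts. Markers of the other class were low but above 0: the summed level of 7 epithelial markers in fibroblasts was 44.1 to 138 CPM in KO and 95.9 to 256 CPM in WT mice, against 5804 to 11677 CPM in epithelial cells of all mice. In B cells, used below as background, that sum was 114 to 451 CPM in KO and 162 to 706 CPM in WT mice.

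**Figure D1:**
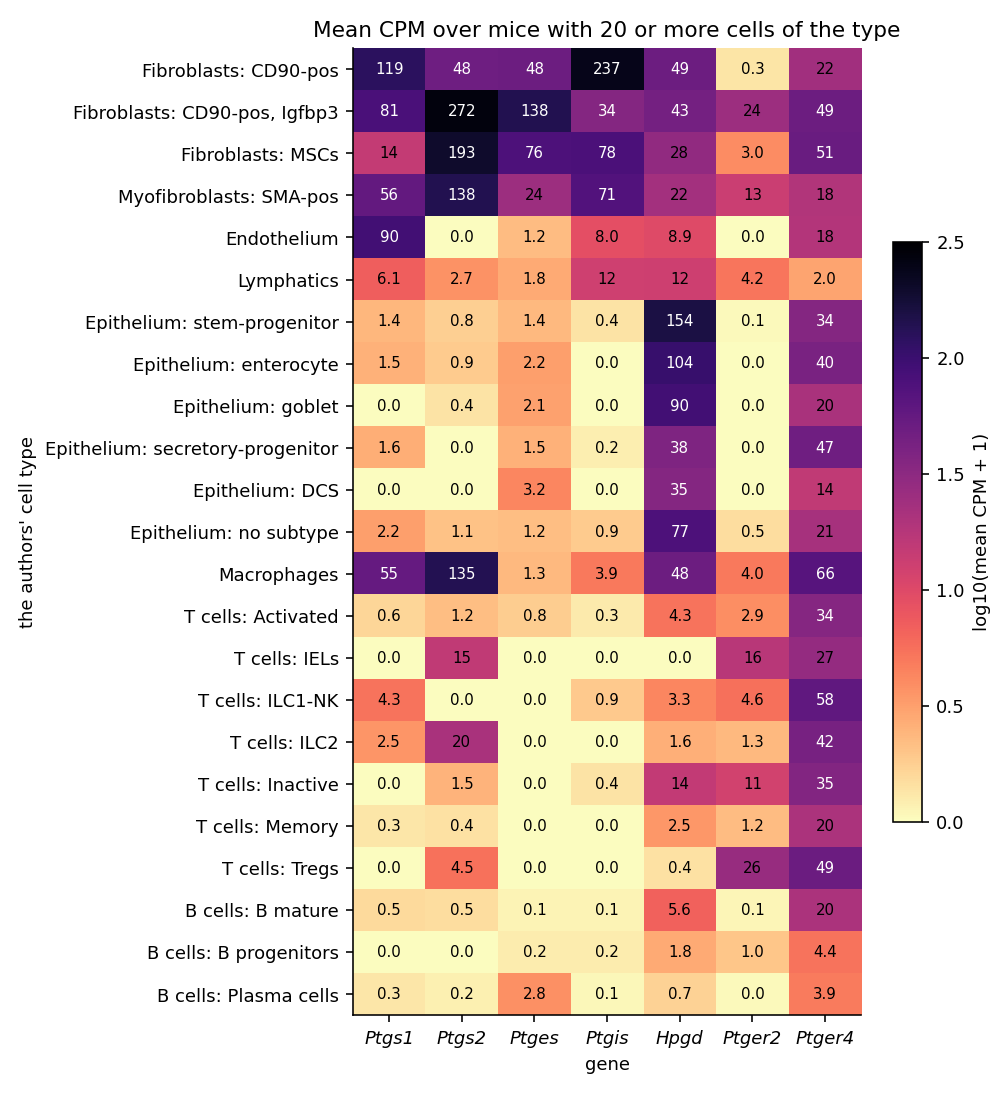
Mean level of the 7 genes (columns) in 23 of the authors' cell types (rows), in CPM printed in each square, with colour on a log10(mean CPM + 1) scale. Among these 23 types, Ptgs2 and Ptges peak in the fibroblasts named CD90-pos, Igfbp3 (272 and 138 CPM). Ptgis peaks there in CD90-pos fibroblasts (237 CPM) and Hpgd in stem-progenitor epithelium (154 CPM).

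The 2 large fibroblast subtypes both carried the synthesis genes but differed in the levels of Ptgs2, Ptges and Ptgis. The authors named 4424 fibroblasts CD90-pos and 1667 CD90-pos, Igfbp3 (called Igfbp3 fibroblasts here), and Thy1, which encodes CD90, was alike in both at 85.7 CPM in Igfbp3 and 83.3 CPM in CD90-pos fibroblasts. In 7 mice with 20 or more cells of both, Igfbp3 fibroblasts had the higher level of the inducible cyclooxygenase Ptgs2, of the synthase Ptges and of the receptor gene Ptger2 in 7 of 7 mice. The receptor gene Ptger4 was higher there in 7 of 7 mice by CPM and in 6 of 7 with mitochondrial transcripts left out. The prostacyclin synthase Ptgis was lower in Igfbp3 fibroblasts in 7 of 7 mice. Because the authors' types come from the same transcripts, these are descriptions with no test, and the types share the library and depth of their mouse.

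For Ptgs2, the level in Igfbp3 fibroblasts was 226, 131, 302 and 552 CPM in KO mice 2, 3, 6 and 7 and 210, 366 and 119 CPM in WT mice 4, 5 and 8. In CD90-pos fibroblasts it was 70.8, 52.7, 54.3 and 55.2 CPM in KO mice and 18.4, 32.7, 47.2 and 50.1 CPM in WT mice 1, 4, 5 and 8. The lowest Igfbp3 value lay above the highest CD90-pos value, and the mean within-mouse log2 difference was 2.22 ± 0.82 (SD, n = 7 mice). Ptges averaged 138 ± 38.5 CPM in Igfbp3 and 48.4 ± 5.94 CPM in CD90-pos fibroblasts (SD over 7 and 8 mice), a log2 difference of 1.43 ± 0.50. Its levels again did not overlap, at 79.8 to 191 CPM in Igfbp3 fibroblasts and 41.0 to 59.9 CPM in CD90-pos fibroblasts.

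The receptor genes were also higher in Igfbp3 fibroblasts. Ptger2, for EP2, was at 17.2, 20.5, 18.9 and 24.6 CPM in Igfbp3 fibroblasts of KO mice and at 30.6, 24.6 and 31.9 CPM in those of WT mice 4, 5 and 8. In CD90-pos fibroblasts it was at 0.323, 0.468, 0.464 and 0 CPM in KO mice and at 0, 0, 1.52 and 0 CPM in WT mice. Those CD90-pos values rest on 7 UMIs in 4424 cells, and the log2 difference of 4.21 ± 0.68 depends on the pseudocount. Ptger4, for EP4, averaged 48.6 ± 9.51 CPM in Igfbp3 and 22.4 CPM in CD90-pos fibroblasts, a log2 difference of 1.19 ± 0.70. The difference was 0.0015 in WT mouse 8, whose CD90-pos value rests on 1 UMI in 21 cells, and -0.096 there with mitochondrial transcripts left out.

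Ptgis showed the opposite layout. It was at 27.0, 34.8, 43.2 and 19.0 CPM in Igfbp3 fibroblasts of KO mice and at 38.8, 32.7 and 45.6 CPM in those of WT mice 4, 5 and 8. CD90-pos fibroblasts had 279, 281, 257 and 244 CPM in KO mice and 219, 314, 254 and 50.1 CPM in WT mice. The exception among them, WT mouse 8, had 21 such cells and 1 UMI of the gene. The mean log2 difference was -2.64 ± 1.16. Ptgs1, the constitutive cyclooxygenase, averaged 80.9 ± 27.3 CPM in Igfbp3 and 119 ± 22.9 CPM in CD90-pos fibroblasts and was higher in Igfbp3 cells in 2 of 7 mice, so its subtypes did not differ beyond their spread by the rule used (same sign in every mouse and a mean above its SD). Hpgd likewise was higher in Igfbp3 cells in 2 of 7 mice.

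**Figure D2:**
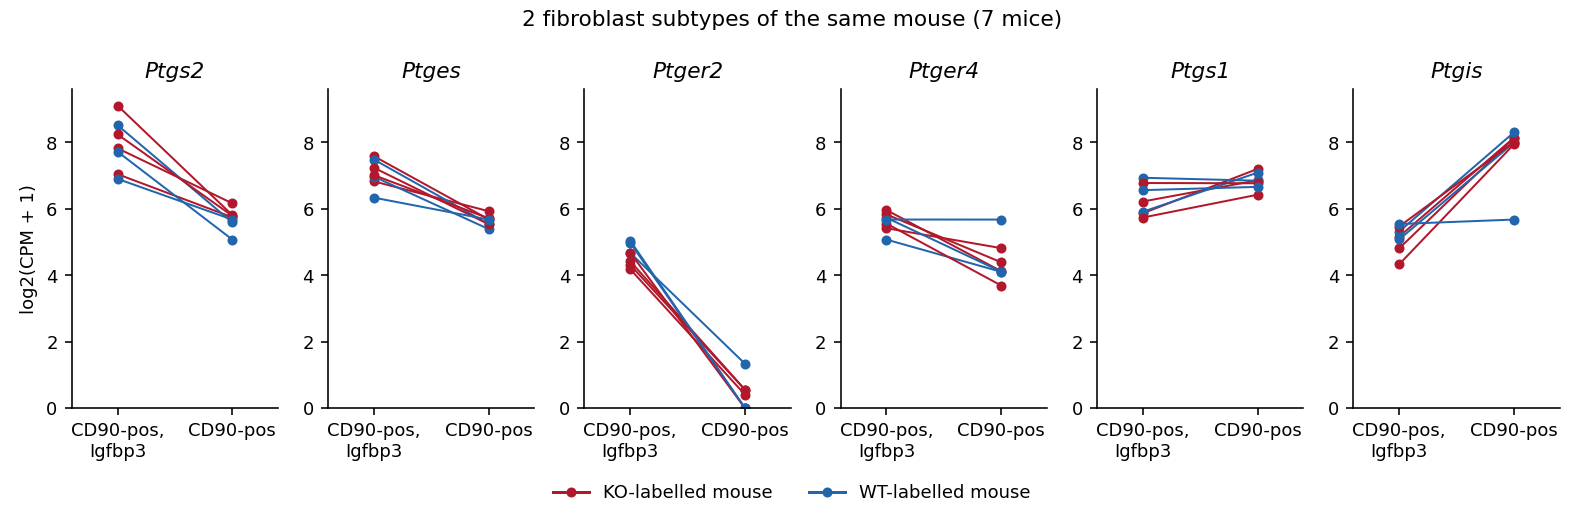
Level on a log2(CPM + 1) scale in CD90-pos, Igfbp3 and in CD90-pos fibroblasts of the same mouse, 1 line per mouse, for 6 genes and 7 mice. Lines of Ptgs2, Ptges and Ptger2 all run lower in CD90-pos cells, with mean differences of 2.22, 1.43 and 4.21, and those of Ptger4 do so in 6 mice and are flat in WT mouse 8 (mean 1.19, lowest 0.0015), while those of Ptgis all run higher there.

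Both cyclooxygenases were also found outside these subtypes. Types with 20 or more cells in fewer than 3 mice were not ranked, among them tuft cells, whose higher Ptgs1 level is given below. Over the 23 types ranked by mean level, Ptgs1 ran CD90-pos fibroblasts (119 CPM), endothelium (89.7 ± 27.6 CPM, 6 mice), Igfbp3 fibroblasts, SMA-pos myofibroblasts (56.1 ± 9.21 CPM, 3 mice) and macrophages (54.9 ± 45.0 CPM, 7 mice). Of these neighbours, only Igfbp3 fibroblasts and SMA-pos myofibroblasts differed beyond their spread. Ptgs2 ran Igfbp3 fibroblasts, fibroblasts named MSCs (193 ± 77.8 CPM, 3 mice), SMA-pos myofibroblasts (138 ± 62.1 CPM, 3 mice), macrophages (135 ± 70.0 CPM, 7 mice) and CD90-pos fibroblasts (47.7 ± 15.8 CPM, 8 mice), and there only macrophages and CD90-pos fibroblasts differed beyond their spread. The 265 endothelial cells held 68 UMIs of Ptgs1 and none of Ptgs2, for which 3 counts over the group would correspond to 3.93 CPM.

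Neutrophils, too few for levels by mouse at 32 cells, held 86 UMIs of Ptgs2, a pooled level of 2095 CPM (95% exact Poisson interval 1676 to 2588 CPM, counting error only). At least 1 UMI was found in 68.8% of these 32 cells, against 0.0952% of B cells, taken as background, at median depths of 1187 and 1994 UMIs. That level stood above the 311.99 CPM pooled in the 47 fibroblasts named CD90-neg, Sox6-Bmp and every ranked type. Dendritic cells, 33 in all, had a pooled Ptgs2 level of 178 CPM (121.8 to 251 CPM). For macrophages, Ptgs2 was at 92.9, 245.3, 210.3 and 102 CPM in KO mice and at 152, 54.7 and 90.7 CPM in WT mice 1, 4 and 5, and these ranges overlapped.

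Among the 23 ranked types, Ptges and Ptgis were led by fibroblasts and myofibroblasts. The next ranked type below SMA-pos myofibroblasts (24.1 CPM) for Ptges was epithelium named DCS at 3.22 ± 5.62 CPM on 2 UMIs. Of the types too small to rank, fibroblasts named CD90-neg, Sox6-Bmp had Ptges at 170 CPM in WT mouse 5, on 17 UMIs in 26 cells. That value lay above the mean of 138 CPM in Igfbp3 fibroblasts. ILC3 cells had a pooled Ptges level of 29.1 CPM (10.7 to 63.4 CPM) on 6 UMIs in 74 cells. Dendritic cells had a pooled level of 11.1 CPM on 2 UMIs. After 4 stromal types, Ptgis continued with lymphatics at 11.6 ± 9.26 CPM on 12 UMIs. The 8 unranked fibroblasts named SMA-pos had Ptgis at 647, 614 and 326 CPM in KO mouse 6 and WT mice 4 and 5. These values rest on 3, 1 and 4 cells and lay above the mean of 237 CPM in CD90-pos fibroblasts. Endothelium, a classical source of prostacyclin, had Ptgis at 8.02 ± 11.5 CPM on 7 UMIs. With each cell thinned to 1000 UMIs, Ptgis was seen in 16.3% of fibroblasts and in 0.0236% of B cells, and Ptges in 7.11% of fibroblasts and 0.0393% of B cells. The median depths of those classes were 4036 and 1994 UMIs before thinning, and 463 fibroblasts and 1962 B cells under 1000 UMIs were left out.

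Within the epithelium, transcripts of Ptgs1 concentrated in tuft cells, rare chemosensory cells marked by Dclk1 and Trpm5. The authors named 117 cells tuft, all from WT mice. They had Ptgs1 at 320, 315, 238 and 129 CPM in mice 1, 4, 5 and 8, from 19, 8, 30 and 60 cells. Each value lay above the mean of 119 CPM in CD90-pos fibroblasts, the highest ranked type for Ptgs1. Because only 2 mice had 20 or more of them, tuft cells were not ranked. No UMI of Ptgs2 or Ptges was found in them, and 3 counts would correspond to 5.87 CPM. Enterocytes had Ptgs1 at 1.53 CPM on average. Since no KO epithelial cell carries a subtype name, cells with UMIs of at least 2 of 10 tuft markers were taken in both groups, which gave 50 cells in KO and 175 in WT mice. They held 193 of the 255 epithelial UMIs of Ptgs1. Its level in them was 126, 149.9, 151 and 58.6 CPM in KO and 140.3, 52.2, 89.8 and 82.5 CPM in WT mice, from as few as 3 cells. Those ranges overlapped, at means of 121 ± 43.4 CPM in KO and 91.2 ± 36.5 CPM in WT mice (SD, n = 4 each; two-sided exact permutation p = 0.343). In all other epithelial cells the means were 0.512 CPM in KO and 0.728 CPM in WT mice. Limits of 3 or 4 markers, chosen after seeing the data, gave 212 and 217 CPM in KO mice against 126 and 137 CPM in WT mice (exact permutation p = 0.4 and 0.457). KO mouse 6 was at 418 and 446 CPM there, on 4 UMIs in 4 and 3 cells. The other KO mice were at 123 to 160 CPM under both limits. WT mice were at 53.9 to 253 CPM and at 55.7 to 289 CPM. The marker rule found 114 of the 117 named tuft cells, and 67.1% of the cells it took among named ones were tuft.

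Hpgd, the degrading enzyme, was found across the main epithelial types and was highest in cells named stem-progenitor. In WT mice 1, 4, 5 and 8, stem-progenitor cells had 109, 89.3, 135 and 282 CPM and enterocytes had 58.2, 61.2, 127 and 169 CPM. Stem-progenitor cells were above enterocytes in 4 of 4 mice, by 0.56 ± 0.35 on the log2 scale. With mitochondrial transcripts left out of the totals, an alternative chosen after seeing the data, they were above them in 3 of 4 mice, and the mean difference was 0.25. Goblet cells averaged 89.6 ± 20.8 CPM over 3 mice, secretory progenitors 37.5 ± 26.4 CPM and DCS cells 34.6 CPM over 4 mice. Thinned to 1000 UMIs, 15.5% of stem-progenitor cells and 7.70% of enterocytes had a UMI of Hpgd, from median depths of 9138 and 2258 UMIs, with 0.565% of B cells as background. Fibroblasts of both large subtypes and macrophages had intermediate levels of 42.8 to 48.7 CPM, which did not differ from each other beyond their spread.

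Over all epithelial cells Hpgd was at 53.5, 65.2, 139 and 133 CPM in KO mice 2, 3, 6 and 7 and at 53.0, 61.0, 106 and 233 CPM in WT mice 1, 4, 5 and 8. In both groups mice 1 to 4 were low and mice 5 to 8 high, so the groups overlapped throughout. The share of epithelial cells with at least 50% mitochondrial UMIs moved with this: it was 53.5% to 79.6% in mice 1 to 4 and 11.1% to 37.2% in mice 5 to 8. Without mitochondrial transcripts the levels were 118, 115, 176 and 164 CPM in KO and 110.0, 98.0, 149 and 271 CPM in WT mice, so mice 5 to 8 stayed above mice 1 to 4. The labels give a single batch for all mice, and the part of this mitochondrial share in the Hpgd levels was not tested.

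**Figure D3:**
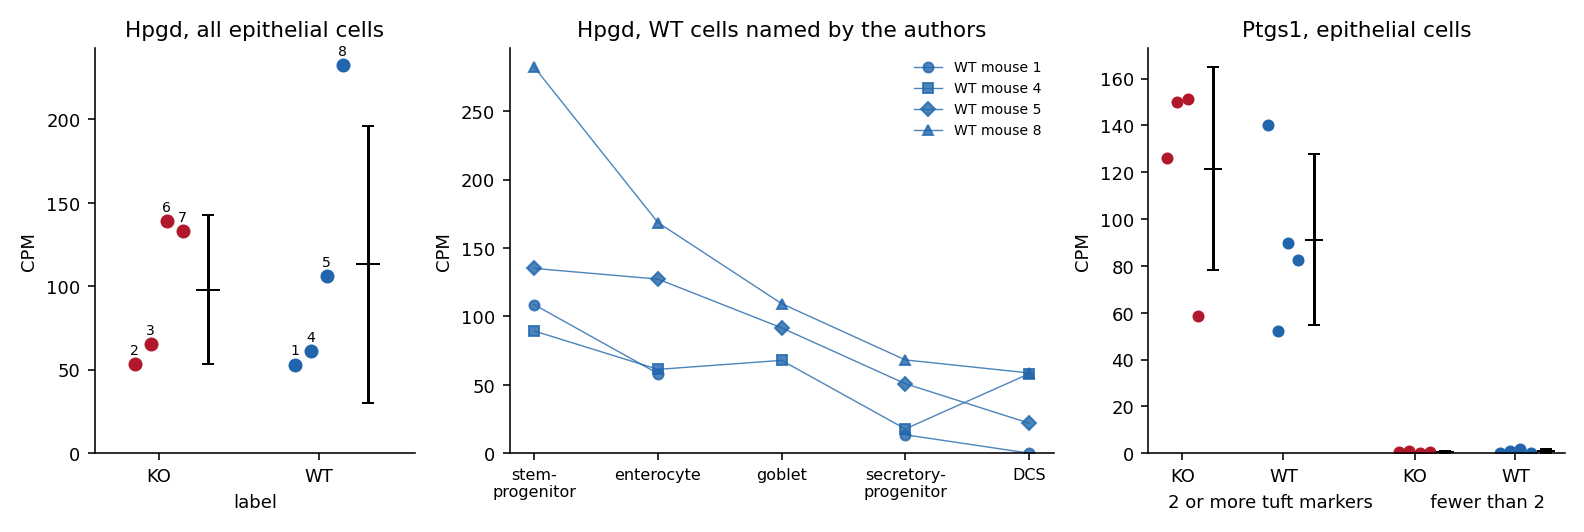
Left, Hpgd in all epithelial cells of each mouse (CPM; numbers name the mouse, bars are mean and SD), with mice 6 and 7 of the KO and 5 and 8 of the WT group high. Middle, Hpgd in WT cells by the authors' subtype (a mouse without a point had under 20 cells), highest in stem-progenitor cells in every mouse; right, Ptgs1 in epithelial cells with 2 or more tuft markers (means 121 CPM in KO and 91.2 CPM in WT mice) and in all others (0.512 CPM in KO and 0.728 CPM in WT mice).

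Ptger4, the EP4 receptor gene, was found in stromal, immune and epithelial cells. Among the 23 ranked types, macrophages led at 66.4 ± 33.1 CPM (7 mice), followed by ILC1-NK cells at 58.4 ± 20.8 CPM (8 mice). MSCs, Tregs at 49.5 ± 16.3 CPM (7 mice), Igfbp3 fibroblasts and secretory progenitors came next. None of the neighbours down to ILC2 and enterocytes differed beyond their spread. Dendritic cells, neutrophils and glia, at 33, 32 and 42 cells, were too few to rank, so this order does not cover them. Epithelial cells had 23.7, 30.4, 32.0 and 25.8 CPM in KO and 17.7, 36.6, 30.1 and 36.2 CPM in WT mice, and every KO value lay inside the range of the WT ones. In the B lineage, mature B cells averaged 19.6 CPM and plasma cells 3.93 CPM. Ptger2 in contrast was led by regulatory T cells at 25.8 ± 11.9 CPM (7 mice) and by Igfbp3 fibroblasts, which did not differ beyond their spread. Tregs were above memory T cells in 7 of 7 mice for Ptger2, with a log2 difference of 3.82 ± 1.14, and in 6 of 7 mice for Ptger4. The Ptger2 levels rest on 30 UMIs in 412 Tregs and 4 UMIs in 1247 memory T cells, and the size of their difference depends on the pseudocount. In 74 ILC3 cells Ptger2 reached a pooled 58.2 CPM (30.1 to 102 CPM) on 12 UMIs. Epithelial cells had 9 UMIs of Ptger2 among 23787 cells.

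Genotype was then compared, the question being whether deletion of Spry2 in the epithelium goes with other levels of these genes there or in the neighbouring cells. The test was edgeR's quasi-likelihood test on summed counts, fitted over all genes of a cell set with p-values adjusted by Benjamini and Hochberg and called under 0.05. No member passed it in any set. The share of all genes called was 0% in epithelium, fibroblasts, CD90-pos fibroblasts, Igfbp3 fibroblasts, T cells and B cells and 0.111% in macrophages. DESeq2 called 0 genes in those 6 sets as well, and at an unadjusted p under 0.05 edgeR counted from 96 genes in epithelium to 230 in Igfbp3 fibroblasts. In simulated epithelial counts, 86.5% of the genes set to a 4-fold difference were called and 38% of those set to a 2-fold one.

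In fibroblasts as a class, all 7 members were tested, 3 with positive and 4 with negative log2 fold changes (KO over WT), at a median of -0.03 against 0.01 over all genes. Ptgs2 was at 96.6, 60.6, 169 and 251 CPM in KO mice and at 17.9, 58.3, 219 and 113 CPM in WT mice, with a log2 fold change of 0.51 ± 0.63 (SE; 95% interval -0.89 to 1.92). Ptgs1 was at 106, 137, 71.0 and 105 CPM in KO and 147, 123, 121 and 95.7 CPM in WT mice, with a log2 fold change of -0.20 ± 0.20 (interval -0.64 to 0.24). Ptges differed by 0.05 ± 0.27 (-0.54 to 0.64), Ptgis by 0.26 ± 0.38 (-0.58 to 1.11) and Ptger2 by -0.88 ± 0.76 (-2.58 to 0.81). In each of the 5 genes the values of the groups overlapped. The class levels also reflect its make-up: Igfbp3 cells were 10.3%, 9.34%, 41.5% and 31.5% of fibroblasts in KO mice and 3.78%, 13.2%, 49.8% and 87.2% in WT mice. That share split by mouse number, at 3.78% to 13.2% in mice 1 to 4 and 31.5% to 87.2% in mice 5 to 8. Ptgs2 in the class split likewise, at 17.9 to 96.6 CPM in mice 1 to 4 and 113 to 251 CPM in mice 5 to 8. The part of the share in these Ptgs2 levels was not tested. Levels in a summed class cannot tell more cells of a subtype from more RNA of the gene per cell, so the subtypes follow.

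Within CD90-pos fibroblasts the CPM of Ptgs2 given above did not overlap between the groups: all 4 KO mice, at 52.7 to 70.8 CPM, were above all 4 WT mice, at 18.4 to 50.1 CPM. That separation does not hold with mitochondrial transcripts left out of the totals, where KO mouse 3 was at 54.1 CPM and WT mouse 8 at 55.2 CPM, from 1 UMI in 21 cells. The log2 fold change was 0.80 ± 0.23 (95% interval 0.32 to 1.28), with an unadjusted p of 0.00263 and an adjusted p of 1.00 in edgeR's quasi-likelihood test over 9843 genes. Of those genes, 1.26% had every KO mouse above every WT mouse. With no filter on low counts the adjusted p was 0.0328, and 28 genes were called in place of 0, so the filter decides the call.

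Counted as cells with at least 1 UMI after thinning to 1000, Ptgs2 was seen in 4.64% ± 0.39 of CD90-pos fibroblasts of KO mice and 2.42% ± 1.12 of those of WT mice (SD, 4 and 3 mice, since mouse 8 kept 3 cells). The two-sided exact permutation p was 0.0286, the smallest that 4 against 3 mice allow, and 0.486 after adjustment over 17 tests. Without thinning the shares were 11.1% in KO and 7.15% in WT mice. In Igfbp3 fibroblasts the thinned shares were 17.3% ± 6.06 in KO and 8.08% ± 4.25 in WT mice (exact permutation p = 0.0857), and the fold change of the level was 0.36 ± 0.40 on the log2 scale (-0.51 to 1.22), without WT mouse 1, which had 15 such cells. The shares in B cells, where Ptgs2 would be background, were 0.0262% in KO and 0.0280% in WT mice. Over the 17 tests the adjusted p ranged from 0.486 to 0.914.

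**Figure D4:**
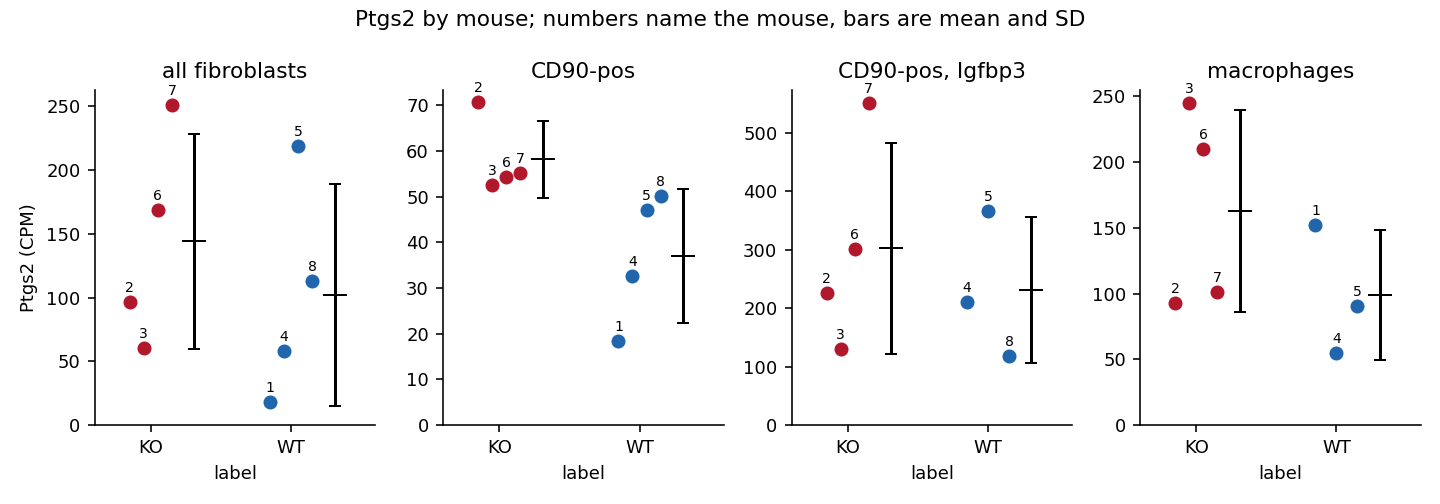
Ptgs2 level (CPM) in each mouse, KO left and WT right, for all fibroblasts, CD90-pos fibroblasts, Igfbp3 fibroblasts and macrophages; numbers name the mouse and bars are mean and SD over mice with at least 20 cells. The groups overlap except in CD90-pos fibroblasts, where KO mice at 52.7 to 70.8 CPM stand above WT mice at 18.4 to 50.1 CPM; with mitochondrial transcripts left out, WT mouse 8 (55.2 CPM, 1 UMI) lies above KO mouse 3 (54.1 CPM).

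Among the other members and subtypes, Ptges in CD90-pos fibroblasts was at 50.4, 59.9, 51.5 and 45.4 CPM in KO and 43.3, 41.0, 45.7 and 50.1 CPM in WT mice, a log2 fold change of 0.28 ± 0.15 (-0.04 to 0.61) with overlapping groups. Ptgs2 in macrophages had a log2 fold change of 0.71 ± 0.40 (-0.15 to 1.57), over 4 KO and 3 WT mice, since WT mouse 8 had 7 macrophages. Ptgs1 in macrophages differed by -0.15 ± 0.59, and the 6 genes called in that class, all lower in KO mice, included no member.

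In epithelial cells, where Cre acts, the fold change of Hpgd was -0.16 ± 0.32 (95% interval -0.87 to 0.55) and that of Ptger4 -0.02 ± 0.23 (-0.52 to 0.48) on the log2 scale. After thinning, Hpgd was seen in 6.95% ± 3.83 of epithelial cells of KO and 7.74% ± 5.34 of those of WT mice (exact permutation p = 0.857, n = 4 each). The shares for Ptger4 were 2.06% ± 0.59 in KO and 2.35% ± 0.89 in WT mice (exact permutation p = 0.6). Ptgs1 and Ptges, the other members that passed the filter there, had fold changes of -0.27 ± 0.64 and -0.43 ± 0.42, on 255 and 119 UMIs. For Ptgs1, 193 of these UMIs lay in cells with 2 or more tuft markers, of which KO mice had 50 and WT mice 175. Mean levels within those cells were 121 CPM in KO and 91.2 CPM in WT mice, with overlapping ranges. The part of this make-up in the Ptgs1 fold change was not tested. In T cells Ptger4 differed by 0.12 ± 0.26 and Ptger2 by 0.21 ± 0.41, and in B cells Ptger4 differed by -0.06 ± 0.25. The genotype difference in epithelium minus that in fibroblasts was tested for all 7 genes by permutation of the mice on the within-mouse log2 ratio, and the exact p ranged from 0.286 for Ptges to 1 for Ptger4, with adjusted values of 0.96 and 1.

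The share of a gene's UMIs that a class supplies depends on how many cells of it were caught, and fibroblasts were 15.5% of cells in KO and 8.86% in WT mice. Epithelial cells were 39.5% of cells in KO and 54.9% in WT mice. Fibroblasts supplied 93.9% ± 1.56 of Ptges UMIs in KO and 80.5% ± 12.2 in WT mice, and epithelial cells supplied 2.71% ± 1.05 in KO and 14.6% ± 11.5 in WT mice (SD, n = 4 each). For Ptgs2 the epithelial share was 0.972% in KO and 2.62% in WT mice, and for Ptger4 the fibroblast share was 21.9% in KO and 9.67% in WT mice. Each of these 4 shares had an exact permutation p of 0.0286, the smallest that 4 against 4 mice allow, and an adjusted p of 0.1 over 14 tests, so none passed.

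**Figure D5:**
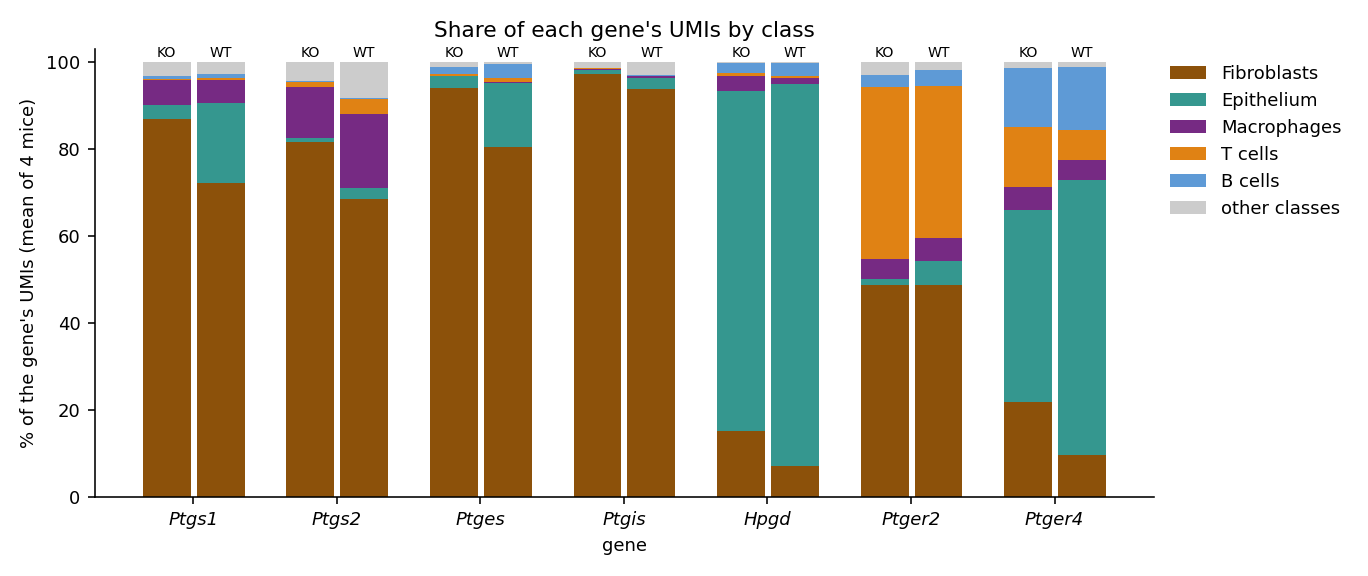
Share of each gene's UMIs (percent, mean of 4 mice) by class of cell, KO left and WT right in each pair. Fibroblasts fill most of the bars of Ptgs1, Ptgs2, Ptges and Ptgis, and epithelial cells most of Hpgd; the epithelial part of Ptges is 2.71% in KO and 14.6% in WT mice.

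Of 39 further genes of the pathway, 37 were in the table, and none passed the test in any of the 7 sets. In epithelium 24 were tested, 12 with positive and 12 with negative fold changes, at a median of 0.0035 against 0.0022 over all genes on the log2 scale. In fibroblasts 20 were tested, 8 positive and 12 negative, at a median of -0.03 against 0.01. Levels are given for the highest gene of each role over types with at least 3 mice. Among enzymes that free arachidonate, Mgll, the monoacylglycerol lipase, reached 882 ± 318 CPM in endothelium, while Pla2g4a, the cytosolic phospholipase A2, was at 118 ± 34.5 CPM in Igfbp3 fibroblasts and 55.3 ± 23.9 CPM in CD90-pos fibroblasts. Of the other terminal synthases, Cbr1, a carbonyl reductase, reached 255 ± 53.4 CPM in stem-progenitor epithelium. Of the genes of breakdown and transport, Slco2a1, the prostaglandin transporter, was highest in endothelium at 509 ± 224 CPM. In the list of other prostanoid receptors, Ptgfrn, which encodes a regulator of the prostaglandin F receptor, was highest in CD90-pos fibroblasts at 255 ± 18.0 CPM. In the lipoxygenase branch, which makes leukotrienes, Alox5ap, the 5-lipoxygenase activating protein, was at 594 ± 130.1 CPM in macrophages.

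Genes whose mean levels over 24 cell types ran most like a member were found by Pearson correlation of log2(CPM + 1) among 13390 genes. Ptgis was most like Antxr1, Olfml2b and Cryab, at 0.97, 0.97 and 0.96, and Ptges most like Gpr153, Mgarp and Gli3, at 0.95, 0.95 and 0.94. For Ptgs2 they were Pianp, Arhgap22 and Tcp11l1 (0.92, 0.90 and 0.90), for Ptgs1 Etv1, Pld2 and Tmem132a (0.88, 0.87 and 0.86) and for Hpgd Adgra3, Fgd4 and Scamp5 (0.91, 0.91 and 0.90). The receptor genes had weaker partners: Maf, Fancf and Adam19 for Ptger2 (0.80, 0.79 and 0.75) and Fam46a, Baiap2 and Smad3 for Ptger4 (0.77, 0.74 and 0.73). The types share libraries and range widely in depth, so these values describe likeness only.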

How the data were processed

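Cells of the distal colonic mucosa of 8 mice were captured by droplets and transcript 3′ ends sequenced. Per the submitters' processing notes, Cell Ranger 3.0.2 and the mm10 build were used and no tool is named for the later steps. Values in the deposited matrix are raw UMI counts, not normalized. The deposited size factor of a cell is a ratio of its total to a mean total. The deposited UMAP coordinates are a score without unit. Both served only to order the cells: 16 of 53080 size factors equalled the matrix totals in file order and 53080 after sorting by mouse and barcode. Per cell, 500 to 113660 UMIs were counted. Types are the authors'.

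The mouse was the replicate, as the labels number the mice. Sums of counts over the cells of a set were tested where 3 mice per genotype had 20 cells, with edgeR 4.0.16 (TMM, filterByExpr, quasi-likelihood F test, Benjamini-Hochberg, threshold 0.05) in R 4.3.3; DESeq2 1.42.0 was an alternative. CPM in the text is the plain ratio of sums. Detection used cells thinned to 1000 UMIs. Exact permutation tests were two-sided over 70 assignments (35 for 4 against 3 mice), so no p can go below 0.0286. Intervals cover 95% and, for pooled counts, counting error only. Names of likest genes are the 3 highest correlations over types of at least 100 cells, among genes with 200 UMIs; pathway genes are named by the highest level per role, and Pla2g4a was added after its values were seen. The tuft rule and its limit were set by hand. Members and lists were chosen with earlier results of these data known. The scripts were tested on simulated data. The other steps ran in Python 3.11.15 with pandas 2.3.3, scipy 1.17.1, numpy 2.4.6 and matplotlib 3.10.9; GENCODE M21 gave positions and RefSeq gave 6 of the 7 promoters.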

Additional observations from a re-analysis of the deposited data

Results flagged for a closer look

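Among 51 groups of 4 mice, 1 per member, cell set and genotype, 5 held a mouse far from the other 3 by Dixon's criterion. Chance gives this in about 1 of 20 separate groups, but these groups share mice and nested cell sets. Ptgs2 in CD90-pos fibroblasts of KO mouse 2 was at 70.8 CPM, the others at 52.7 to 55.2 CPM. Hpgd in fibroblasts of WT mouse 8 was at 132 CPM, the others at 25.5 to 41.7 CPM; in the CD90-pos cells of that mouse it was at 150.4 CPM, the others at 23.5 to 42.6 CPM, and Ptger4 there was at 50.1 CPM, the others at 16.2 to 21.3 CPM. Those CD90-pos values rest on 3 UMIs and 1 UMI in 21 cells. Hpgd in B cells of WT mouse 4 was at 7.17 CPM, the others at 2.57 to 2.82 CPM. The summed level of 7 epithelial markers in B cells was 706 CPM in that mouse and 162 to 348 CPM in the other WT mice. Its part in the Hpgd value was not tested.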

How the results depend on the processing

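No paired analysis was possible because each mouse number belongs to 1 genotype. Of 13 pairs of a member and a cell set with at least 100 UMIs, only Ptgs2 in CD90-pos fibroblasts changed its call under an alternative (no filter on low counts, as given above); its fold change ranged from 0.55 without WT mouse 1 to 1.13 without WT mouse 5. Over the 13 pairs, 179 of 199 alternatives kept both sign and call, and 1 kept the sign and changed the call. The sign reversed in 19, in 7 of the pairs. With no filter on low counts 28 genes were called in CD90-pos fibroblasts, 50 in Igfbp3 fibroblasts, 37 in macrophages and 14 in T cells. Leaving out 1 mouse at a time gave 0 to 1, 0 to 5 and 3 to 7 calls in those first 3 sets. The sign reversed for Ptger4 in B cells with library totals only (0.0013), for Ptgs1 in macrophages with DESeq2 (0.18), for the share of fibroblasts with Ptges when thinned to 500 UMIs (-0.83 points), and for the difference between epithelium and fibroblasts of Ptgs1 (0.11) and Ptgis (-0.34) with a pseudocount of 10 and of Ptger2 (-0.071) with 0.1. The cause was not tested.

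Leaving out 1 mouse at a time, log2 fold changes ranged from -0.24 to 0.091 for Ptger4 in B cells, -0.33 to 0.29 for Hpgd and -0.15 to 0.15 for Ptger4 in epithelium, -0.11 to 0.44 for Ptges in fibroblasts, -0.11 (without KO mouse 7) to 0.90 for Ptgs2 in Igfbp3 fibroblasts, -0.85 to 1.38 for Ptgs1 in macrophages and -0.15 to 0.26 for Ptger4 in T cells. Differences in shares of cells, in points, ranged from -0.32 to 2.42 for Ptges and -0.85 to 3.93 for Ptgis in fibroblasts and -2.29 to 1.68 for Hpgd in epithelium. The fibroblast share of Ptger2 UMIs differed by -13.8 to 7.39 points. The difference between epithelium and fibroblasts ranged from -0.40 to 0.070 for Ptgs1, -0.22 to 0.41 for Ptgis, -0.22 to 1.22 for Ptger2 and -0.15 to 0.34 for Ptger4. The share of CD90-pos fibroblasts with Ptgs2 had an exact permutation p of 0.0857 thinned to 500 UMIs and unthinned. Cells named doublets were put back for B cells, T cells and fibroblasts only, since no other set has them. Few WT cells of mouse 8 among CD90-pos fibroblasts and low UMI numbers of Ptger2 limit those values.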
